A study of Mus musculus with 2 samples.

Results

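Dendritic cells with MHC class II were taken from single-cell RNA sequencing of mouse blood. A cell was a member if it had at least 2 unique molecular identifiers (UMIs, 1 per captured RNA molecule) of Flt3, Cd209a and Batf3 together. It also needed at least 5 UMIs of the class II chains H2-Aa and H2-Ab1 together, and at most 2 of the B cell receptor genes Cd79a and Cd79b together. Members were thus chosen by their measured levels of these 7 genes, so those levels are a description and not a result. The rule found 136 members among 26438 cells that passed the filters on cells. Of these, 107 came from 13517 old cells, a share of 0.792% (0.649 to 0.956), and 29 from 12921 young cells, a share of 0.224% (0.150 to 0.322). Intervals in parentheses are 95% intervals throughout, exact Clopper-Pearson for shares and exact Poisson for levels, and cover counting error only.

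The old library came from mice of 24 months and the young library from mice of 2 months, both labelled male. Both hold blood cells freed of red cells by lysis and sorted for the surface proteins CD45, CD11b and Ly6G, of which Ly6G marks neutrophils. The series set out to describe ageing neutrophils. The labels name no strain, genotype or treatment and do not say how many animals were used. Each age has a single library, so ages were not tested against each other and every value describes these 2 libraries.

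Dendritic cells capture antigen, cut it into peptides and show these to T cells on MHC class II molecules. Class II chains pair in the endoplasmic reticulum around the invariant chain, encoded by Cd74, which is cut away in endosomes. The chaperone H2-DM, made of H2-DMa and H2-DMb chains, then loads the peptide, and H2-DO holds H2-DM back, mainly in B cells. In mice the conventional type 1 cell needs Batf3 and Irf8 and carries Xcr1 and Clec9a, the type 2 cell depends on Irf4 and carries Cd209a or Clec10a, and the plasmacytoid cell depends on Tcf4 and carries Siglech. Flt3 is the receptor for the growth factor on which these lineages depend, and Zbtb46 is a transcription factor found in conventional dendritic cells but not in monocytes.

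Class II genes share a promoter module of S, X and Y boxes. The X box is bound by RFX proteins, the Y box by the trimer NF-Y, and CIITA joins the assembly as a coactivator. The windows of 3 class II genes whose levels are followed below are printed from 250 bases before to 50 bases after the start, from RefSeq on GRCm38.p6, 5′ to 3′ on each gene's strand. Capitals mark GATTGG, the Y box core, or its reverse complement CCAATC. H2-Aa (chr17:34287774-34288073, minus strand) encodes the alpha chain of the I-A molecule, H2-Eb1 (chr17:34305617-34305916, plus strand) the beta chain of I-E, and H2-DMb1 (chr17:34152941-34153240, plus strand) a beta chain of H2-DM.
H2-Aa: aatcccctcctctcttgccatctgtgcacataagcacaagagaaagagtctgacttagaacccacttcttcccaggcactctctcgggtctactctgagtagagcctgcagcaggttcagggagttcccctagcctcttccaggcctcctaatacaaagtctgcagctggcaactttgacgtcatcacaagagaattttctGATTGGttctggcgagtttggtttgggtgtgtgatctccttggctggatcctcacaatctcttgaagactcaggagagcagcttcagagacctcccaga
H2-Eb1: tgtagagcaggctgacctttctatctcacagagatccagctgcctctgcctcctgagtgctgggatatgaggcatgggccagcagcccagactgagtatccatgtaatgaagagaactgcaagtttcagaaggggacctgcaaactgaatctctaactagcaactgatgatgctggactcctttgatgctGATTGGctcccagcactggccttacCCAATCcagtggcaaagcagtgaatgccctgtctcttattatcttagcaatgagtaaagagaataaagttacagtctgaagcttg
H2-DMb1: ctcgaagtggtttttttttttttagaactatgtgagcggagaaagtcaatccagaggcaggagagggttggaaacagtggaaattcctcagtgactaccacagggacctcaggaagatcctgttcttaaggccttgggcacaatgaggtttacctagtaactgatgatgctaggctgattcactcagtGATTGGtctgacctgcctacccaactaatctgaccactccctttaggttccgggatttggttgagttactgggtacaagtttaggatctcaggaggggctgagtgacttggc
The first base of GATTGG lay 49 bases before the start in H2-Aa, 60 in H2-Eb1 and 62 in H2-DMb1, and H2-Eb1 had a reversed copy 35 bases before the start. Of the class II molecules and chaperones, 8 genes matched the promoter table, 7 of them above the 10 CPM floor used for lists below, and each of the 8 had GATTGG on either strand in at least 1 window. Counted by window, 8 of 9 held it. H2-DMa had 2 windows, 1 with no copy and 1 with a copy 199 bases before the start, farther away than in the genes printed above. Over all 32851 promoters of the same length, each counted as 1 window, 16.1% held it. A match is a description of these letters and not of binding.

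Member cells were deep. They had a median of 15087 UMIs in the old and 15487 in the young library, against 7608 and 4236 over all filtered old and young cells. A rule on UMIs favours deep cells. Once every cell was thinned to 1000 UMIs, the rule took 12 of 12983 old cells (0.0924%) and 5 of 12617 young cells (0.0396%). Levels below are CPM, the members' summed UMIs of a gene scaled to the total of all their UMIs, with 1823874 UMIs behind the old and 497962 behind the young values. The libraries shared 53 barcodes, 1 of them that of an old member. A sort on Ly6G is meant to keep neutrophils. Ly6g RNA had a UMI in 50 of 107 old and 1 of 29 young members, at 103 CPM in old members and 2.01 CPM in young members. In the B cell gate described below it stood at 183 CPM in the old and 18.4 CPM in the young library. In bulk sums of this kind, fewer cells with a gene and less RNA per cell cannot be told apart, so the number of members with a UMI stands beside many levels.

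Flt3 had a UMI in 88 old and 18 young members, Cd209a in 35 and 15, and Batf3 in 72 and 24, and all of these genes at once in 19 old and 9 young members. At the lower edge of the rule, 22 old and 5 young members had exactly 2 UMIs of the 3 genes, and 33 old and 13 young cells just outside it had 1. Zbtb46 stood at 5.80 CPM in the old and 0 in the young members at 2 UMIs, and had no UMI in the cells at 1. Cells that passed on Flt3, Cd209a and Batf3 but had fewer than 5 class II UMIs numbered 288 old and 77 young. In them Cd209a stood at 1.27 CPM in the old and 7.79 CPM in the young library, Lyz2, a lysozyme gene of monocytes and neutrophils, at 17631 and 16429 CPM, and the fibronectin gene Fn1 at 1021 and 816 CPM. Class II levels varied widely inside the rule, with a median of 68 UMIs of H2-Aa and H2-Ab1 per old member (5 to 526) and 176 per young member (8 to 451).

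The 3 other gates were drawn for comparison, each with at most 1 UMI of Flt3, Cd209a and Batf3. The B cell gate needed 5 UMIs of Cd79a and Cd79b (240 old, 408 young cells), the non-classical monocyte gate 3 of Treml4, Ace and Cd300e (721 old, 608 young), and the neutrophil gate 5 of Csf3r, Cxcr2 and Mmp9 (9819 old, 10866 young). The neutrophil gate also excluded cells with 5 or more class II UMIs, so its class II level is low by choice. Median depths were 8562 and 6447 UMIs in old and young B cell gate cells, 11115 and 9272 in non-classical monocyte gate cells and 7279 and 4115 in neutrophil gate cells.

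Each of the 10 class II pathway genes described here had UMIs in members of both libraries. Cd74, the invariant chain (ENSMUSG00000024610, chr18:60803848-60812652), stood at 7603 (7477 to 7731) CPM in old members and 13609.5 (13287 to 13937) CPM in young members, and every member had a UMI of it. H2-Eb1, the I-E beta chain, stood at 1906 (1843 to 1970.3) CPM in old members and 4339.7 (4159 to 4527) CPM in young members, with a UMI in 102 of 107 old and 29 of 29 young members. Summed levels in members lay above those of the B cell gate, where Cd74 stood at 5848 CPM in the old and 8601 CPM in the young library and H2-Eb1 at 1796 and 1916 CPM. For H2-Eb1 the old members and the old B cell gate were close, at a ratio of 1.06, whereas in the young library the ratio was 2.27. With each cell thinned to 1000 UMIs, the share of cells with an H2-Eb1 UMI was not higher in members than in the B cell gate. H2-Eb1 had a UMI in 61.7% (51.8 to 70.9) of old and 79.3% (60.3 to 92.0) of young members, against 83.2% (77.8 to 87.7) and 80.4% (76.2 to 84.1) of old and young B cell gate cells. For Cd74 the shares were 91.6% and 100% of old and young members and 95.8% and 99.0% of old and young B cell gate cells.

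The chains of the peptide loader H2-DM differed in how far members stood from the B cell gate. H2-DMa, its alpha chain, stood at 476 CPM in old members and 608 CPM in young members and at 238 CPM in the old and 251 CPM in the young B cell gate, and after thinning 36.4% and 37.9% of old and young members had a UMI of it, against 26.1% and 23.8% of B cell gate cells. H2-DMb1, a beta chain (ENSMUSG00000079547, chr17:34153072-34160230), stood at 571 (537 to 607) CPM in old members and 625 (557 to 698) CPM in young members, and had a UMI in all 136 members. In the B cell gate it stood at 84.6 CPM in the old and 101 CPM in the young library, and in the neutrophil gate at 2.29 and 0.779 CPM. After thinning to 1000 UMIs, 46.7% (37.0 to 56.6) of old and 69.0% (49.2 to 84.7) of young members had a UMI of H2-DMb1, against 9.24% and 9.07% of B cell gate cells and 0.276% and 0.0646% of neutrophil gate cells. H2-DMb2, the second beta chain gene, ran the other way, at 14.3 CPM in old members and 50.2 CPM in young members and at 399 CPM in the old and 387 CPM in the young B cell gate. H2-DMb1 and H2-DMb2 are close copies, so counting may split reads between them. The chains of H2-DO, the inhibitor of H2-DM, were likewise low in members, with H2-Oa at 25.8 CPM in old members and 42.2 CPM in young members and H2-Ob at 23.6 CPM in old members and 54.2 CPM in young members. In the B cell gate H2-Ob stood at 249 CPM in the old and 401 CPM in the young library. Ciita, the coactivator of class II genes, stood at 234 CPM in old members and 259 CPM in young members, above the 134 and 199 CPM of the old and young B cell gates and the 7.09 and 7.05 CPM of the non-classical monocyte gates. Ctss, the protease that removes the invariant chain, stood at 1197 CPM in old members and 1169 CPM in young members, and Cst3, a secreted protease inhibitor abundant in dendritic cells, at 2632 CPM in old members and 2954 CPM in young members. In the B cell gate Ctss stood at 349 and 369 CPM in the old and young libraries.

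**Figure D1:**
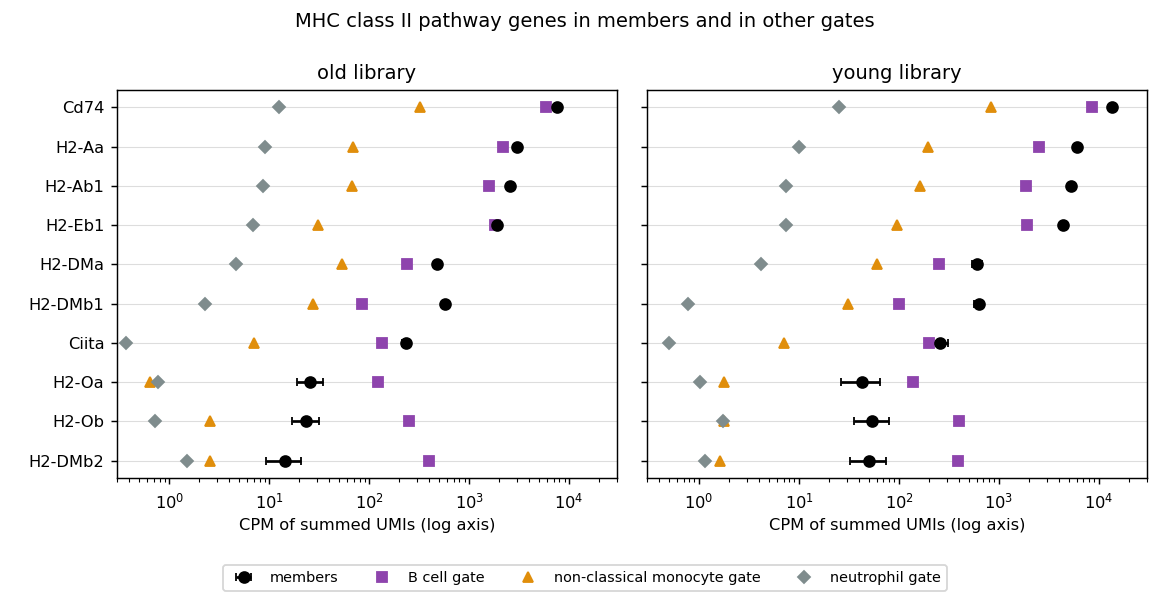
Levels of 10 class II pathway genes (rows) in CPM on a log axis, with old cells in the left and young cells in the right panel. Black points are members with 95% exact Poisson intervals, squares the B cell gate, triangles the non-classical monocyte gate and diamonds the neutrophil gate. H2-DMb1 lies far to the right of the B cell gate, at 571 CPM in old members and 625 CPM in young members, while H2-Oa, H2-Ob and H2-DMb2 lie to its left in both panels.

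Members were compared with the highest of the 3 gates for what they shared beyond the rule genes. Of 3098 genes at 50 CPM or more in members of both libraries, 21 (0.678%) were at least 4-fold higher in both, with no test, since a class cut on UMIs of chosen genes has none. Cd7, an immunoglobulin-family surface protein of lymphoid cells and some dendritic cells, led with 175 (156 to 195) CPM in old members and 98.4 (72.8 to 130.1) CPM in young members. None of the 3 gates held more than 2.72 CPM in the old and 2.72 CPM in the young library. After thinning, 14.0% (8.06 to 22.1) of old and 13.8% (3.89 to 31.7) of young members had a UMI of Cd7, and 33.6% and 27.6% before thinning, against 0.420% and 0.245% of thinned B cell gate cells. Klrd1, which encodes the CD94 receptor known from natural killer cells, stood at 149 (131 to 167) CPM in old members and 233 (192 to 279) CPM in young members. It had a UMI in 43 old and 19 young members, and both Cd7 and Klrd1 in 29 old and 7 young members. Clec10a, a galactose-binding lectin of type 2 dendritic cells and macrophages, stood at 62.0 (51.1 to 74.5) CPM in old members and 127 (97.2 to 162) CPM in young members, with at most 4.23 CPM in the old and 3.04 CPM in the young gates. Tmem176a and Tmem176b, paired membrane proteins of antigen-presenting cells, stood at 427 and 562 CPM in old members and at 205 and 327 CPM in young members.

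The remaining genes of this group have no shared pathway name. Ust, a sulfotransferase that acts on dermatan and chondroitin sulfate, stood at 281 CPM in old members and 173 CPM in young members, and Trerf1, a zinc finger regulator, at 287 CPM in old members and 486 CPM in young members. Ckb, the brain-type creatine kinase, stood at 213 CPM in old members and 179 CPM in young members. Gria3, a subunit of glutamate-gated channels, stood at 84.4 CPM in old members and 60.2 CPM in young members, in 32 old and 4 young members. Rnd3 stood at 123 CPM in old members and 120.5 CPM in young members, and Olfm1, a secreted olfactomedin, at 127 CPM in old members and 74.3 CPM in young members. Srgap3, Frmd4b, Rnf150 and Avpi1 lay between 53.2 and 147 CPM. Slamf7, a surface receptor of the SLAM family, was also among the 21, with 111 CPM in old members and 197 CPM in young members. A further gate, at least 5 UMIs of the classical monocyte genes Vcan, F13a1 and Ccr2, was not part of this comparison, and it held 884 old and 126 young cells. It held Olfm1 at 70.5 CPM in the old and 30.4 CPM in the young library and Tmem176b at 173 and 62.7 CPM. Its young cells held Cd7 at 122 and Klrd1 at 339 CPM, as high as young members, and its old cells at 2.54 and 2.24 CPM. Natural killer genes summed to 4259 CPM in its young and 23.6 CPM in its old cells, and T cell genes to 1513 and 99.7 CPM. No natural killer or T cell gate was drawn, so members were not compared with those cells for Cd7 and Klrd1.

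Members differed by the rule gene that took them in, a split chosen after the values were seen. A Cd209a UMI marked 35 old and 15 young members, a Flt3 UMI without Cd209a 54 old and 6 young members, and Batf3 UMIs alone 18 old and 8 young members. The last set went in part against the dendritic cell label. Cd7 had no UMI in it in either library, and neither had Clec9a or Siglech. Zbtb46 stood there at 2.98 CPM in the old library, from 1 cell, and at 0 in the young library, where 3 UMIs would be 23.5 CPM. Kmo, kynurenine monooxygenase, was at 0 in the old and 39.2 CPM in the young cells of this set. Monocyte genes were found in it. Csf1r, the receptor for the monocyte growth factor, stood at 589.6 CPM in the old and 580.3 CPM in the young cells with Batf3 alone, against 314 and 239 CPM in those with Flt3 and 162 and 233 CPM in those with Cd209a. Adgre4, an adhesion receptor of non-classical monocytes, stood at 393 and 494 CPM in old and young cells with Batf3 alone, at 177 and 702 CPM in those with Flt3 and at 37.3 and 57.1 CPM in those with Cd209a. In the young library the 6 cells with Flt3 thus held more Adgre4 than those with Batf3 alone, and likewise more Treml4, at 159.5 against 102 CPM, and more Ear2, at 487 against 70.6 CPM. Lyz2 stood at 18262 and 12389 CPM in old and young cells with Batf3 alone and at 10054 and 2122 CPM in those with Flt3. At least 3 UMIs of Treml4, Ace and Cd300e were found in 6 of 18 old and 6 of 8 young cells of this set, in 8 of 54 old and 2 of 6 young cells with Flt3, and in 0 of 35 old and 3 of 15 young cells with Cd209a. Not all genes parted the sets. In old cells F13a1 stood at 265 CPM with Batf3 alone, 484 CPM with Flt3 and 423 CPM with Cd209a. Fn1 stood there at 381, 393 and 257 CPM in the same order. In young cells both were highest with Batf3 alone, at 196 and 102 CPM. Irf8 stood at 131 CPM in old and 173 CPM in young cells with Batf3 alone. With Cd209a it stood at 114 and 180 CPM and with Flt3 at 366 and 630 CPM. Irf4 was highest with Batf3 alone in young cells, at 54.9 CPM, and lowest there in old cells, at 29.8 CPM. The 26 cells with Batf3 alone are called members by the rule and are not described as dendritic cells.

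Of the genes above the gates, Cd7, Klrd1 and Clec10a stood highest in the Cd209a set in both libraries. Cd7 stood at 388 CPM in its old and 196 CPM in its young cells, Klrd1 at 326 and 359 CPM, and Clec10a at 119 and 237 CPM. In the Flt3 set Cd7 stood at 117 CPM in old and 7.98 CPM in young cells, and Clec10a at 39.9 and 23.9 CPM. Bcl11a and Tcf4 are transcription factors of lymphoid and plasmacytoid development. In old cells they stood at 352 and 460.2 CPM with Cd209a and at 290.1 and 428 CPM with Flt3, and in young cells at 399.9 and 722 CPM with Cd209a and at 128 and 128 CPM with Flt3. Of the 177 young Tcf4 UMIs with Cd209a, 100 came from 1 cell, and so did 118 of the 407 old ones with Flt3. These 2 cells are those with most Siglech, described below. The type 1 gene Clec9a stood at 63.3 and 32.6 CPM in old and young cells with Cd209a and at 36.8 and 136 CPM in those with Flt3. The young value with Flt3 rested on 17 UMIs, 16 of them from 1 cell. Dpp4, a surface peptidase of dendritic cells, stood at 205 and 199.9 CPM in old and young cells with Cd209a and at 53.6 and 47.0 CPM in those with Batf3 alone. Ccr2, the receptor that brings monocytes and dendritic cell precursors into tissue, was found throughout, at 801 and 473 CPM in old and young cells with Cd209a and 697 and 706 CPM in those with Batf3 alone.

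**Figure D2:**
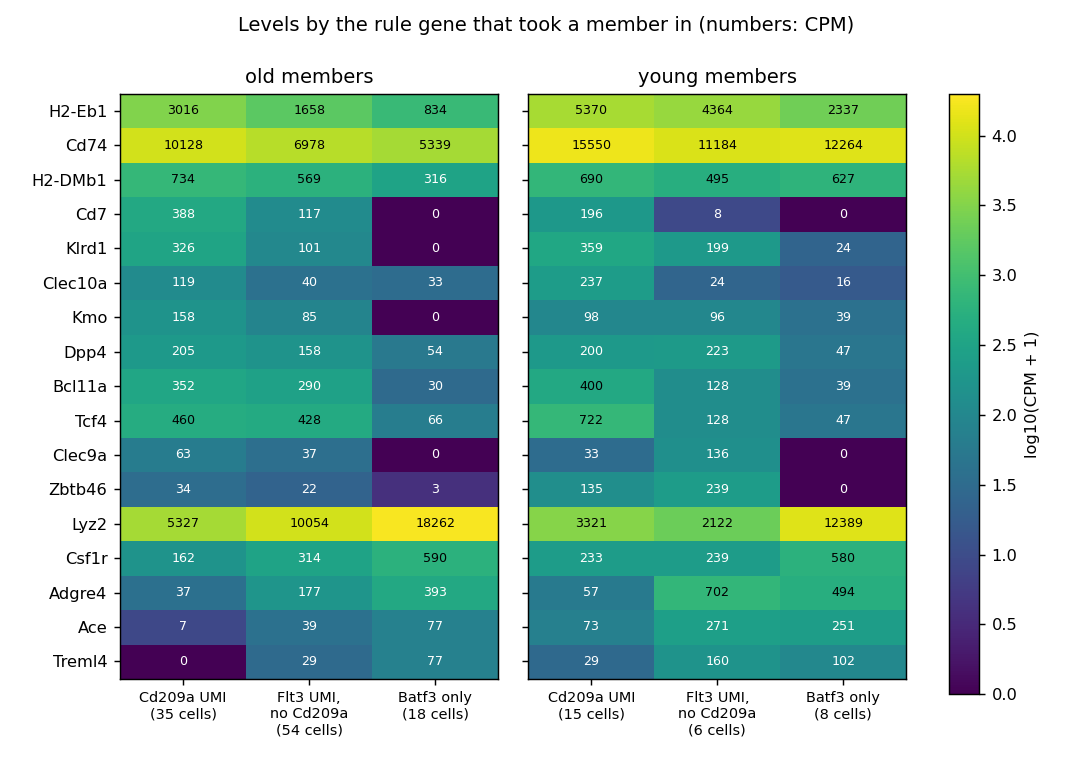
Summed levels of 17 genes (rows) in members split by the rule gene that took them in (columns), old members left and young members right. Colour gives log10 of CPM with 1 added and the printed numbers give CPM. The Batf3-only column is empty of Cd7, Clec9a and, in the young library, Zbtb46, and holds the highest Lyz2, at 18262 CPM in old and 12389 CPM in young cells.

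H2-Eb1, which the rule did not use, had a wide spread within each set. Old members with Cd209a had a median of 1844 CPM per cell and ranged over 55.2 to 9437 CPM, and young ones had a median of 5283 CPM and ranged over 146 to 10195 CPM. With Flt3 and no Cd209a the medians were 912 CPM in 54 old and 4115 CPM in 6 young members. With Batf3 alone they were 664 CPM in 18 old and 1916 CPM in 8 young members. The old median was the lower one in each set, and the ranges overlapped in each. H2-DMb1 per cell had medians of 679.6 CPM in old and 706 CPM in young members with Cd209a, 580.1 and 697 CPM in old and young members with Flt3, and 288 and 559 CPM in those with Batf3 alone.

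**Figure D3:**
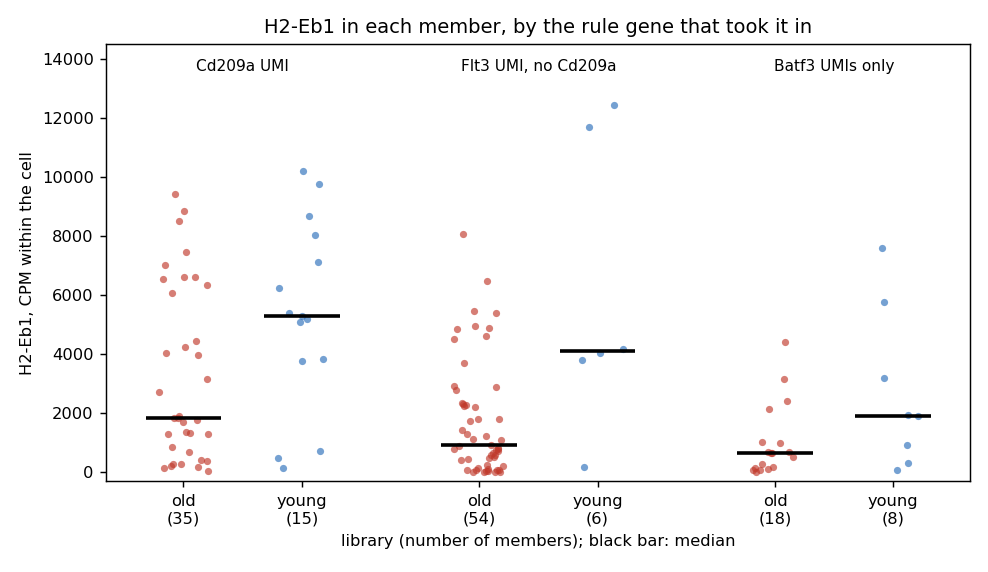
H2-Eb1 in CPM within each of the 136 members (points), split by the rule gene that took the cell in, with old members left of young members in each pair and the number of cells in brackets. Black bars are medians, at 1844 CPM in old and 5283 CPM in young members with a Cd209a UMI, and the points of both libraries overlap in every set.

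Single members held most UMIs of several subset genes, and the cells below were picked after their values were seen. The old member with most Siglech, a plasmacytoid lectin, held 33 of 51 UMIs, and the young one 19 of 20. The same 2 cells held 118 UMIs of Tcf4 in the old and 100 in the young library, 4 and 13 of the kallikrein Klk1, 6 and 13 of the oxidase subunit Cox6a2, and 4 and 12 of the surface protein Ly6d. These are genes of plasmacytoid dendritic cells, and at least 2 UMIs of Siglech and Ccr9 together were found in 6 old and 2 young members.

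The members with most Clec9a, a receptor of type 1 cells for dead cells, held 12 UMIs in the old and 16 in the young library. They also held 84 and 104 UMIs of Wdfy4, needed for cross-presentation, 51 and 50 of Irf8, 26 and 20 of the lipid amidase Naaa, and 25 and 17 of Ifi205. The old cell held the only 4 UMIs of Xcr1, the chemokine receptor of this subset, and young members had 0, where 3 UMIs would be 6.02 CPM. At least 2 UMIs of Xcr1 and Clec9a together were found in 17 old and 3 young members. A further old member held all 6 UMIs of Ccr7, which guides dendritic cells to lymph nodes, with 5 of the actin bundler Fscn1 and 77 of the 92 old UMIs of the chemokine Ccl5. A young member held 43 of 46 UMIs of the killer granzyme Gzma and 17 of 18 of the natural killer receptor Ncr1, together with 14 UMIs of Cd209a and 180 of H2-Eb1. The same cell held 25 of 26 young UMIs of the adhesion molecule Cadm1.

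Old members were set against young members gene by gene, with 1 CPM added to each level. Ratios are log2 of old over young relative to the median gene, which stood at -0.13, and a gene counts as higher or lower from 2-fold. Among 3536 genes averaging at least 50 CPM over the libraries, 93 (2.63%) were higher and 77 (2.18%) lower in old members, and 63 and 103 in plain CPM ratios, without centring on the median gene. Class II chains were among the lower genes or close to them. H2-Eb1 had a relative log2 ratio of -1.06 (-1.14 to -0.98). Cd74 lay at -0.71 (-0.75 to -0.67), and the rule genes H2-Aa and H2-Ab1, given as a description, at -0.85 and -0.91. H2-DMb1 lay at 0.00 (-0.18 to 0.19), and Ciita at -0.0156 (-0.30 to 0.28). Over the list of class II molecules and chaperones, 7 genes beside the rule genes were measured, of which 0 were higher and 3 lower, with a median of -0.71. The lower ones were H2-Eb1, H2-DMb2 and H2-Ob. H2-DMb2 lay at -0.89 and H2-Ob at -0.16 in members with a Cd209a UMI, and H2-Ob rested on 43 old and 27 young UMIs. Among the class II regulators, 9 genes were measured, of which 0 were higher and 1 lower. The lists take genes from 10 CPM in the mean, where all 8151 genes gave 373 higher (4.58%) and 406 lower (4.98%) and a median of -0.0131. In the non-classical monocyte gate H2-Eb1 lay at -1.36 and in the B cell gate at 0.0176. With members of at least 25 UMIs of H2-Aa and H2-Ab1 alone (83 old, 28 young) H2-Eb1 lay at -0.90, with at least 3 UMIs of Flt3, Cd209a and Batf3 at -0.90, and with a Cd209a UMI at -0.75, all inside 2-fold.

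Costimulatory genes, which give T cells their second signal, were listed together with inhibitory checkpoint genes, and genes of this list went both ways. Cd86 was lower, at 33.4 (25.6 to 43.0) CPM in old members and 88.4 (64.2 to 119) CPM in young members, with a relative log2 ratio of -1.25, which was -0.96 without the member holding most of its UMIs in each library. Havcr2, the inhibitory receptor TIM-3, was lower at 50.4 CPM in old members and 155 CPM in young members (-1.47), and Cd274, which encodes PD-L1, at 9.32 CPM in old members and 44.2 CPM in young members, from 17 old and 22 young UMIs. Cd40, the receptor for T cell help, was higher at 25.2 CPM in old members and 8.03 CPM in young members (1.67), from 46 old and 4 young UMIs. Of the list, 11 genes were measured, of which 1 was higher (9.09%) and 3 lower (27.3%), against 4.58% and 4.98% of all genes at 10 CPM. Antigen processing genes were mostly near the median gene. Of 21 measured genes 1 was higher, a share of 4.76% near that of all genes, and 0 lower, with a median of -0.0386. The higher one was Ifi30, a thiol reductase that unfolds antigens, at 1352 (1299 to 1406) CPM in old members and 703 (631 to 780.5) CPM in young members (1.07). Its plain CPM ratio was inside 2-fold at 0.94. It lay at 1.20 in the non-classical monocyte gate and 1.88 in the neutrophil gate.

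Genes of classical monocytes led the higher genes. Fn1 stood at 351 (324 to 379) CPM in old members and 32.1 (18.4 to 52.2) CPM in young members, a relative log2 ratio of 3.54 (2.87 to 4.39), with a UMI in 67 of 107 old and 5 of 29 young members. Chil3, a chitinase-like secreted protein, had 1047 (1000.2 to 1095) CPM in old members and 104 (78.0 to 137) CPM in young members, and 44 of its 52 young UMIs came from 1 cell. Both were also higher in old than in young cells of the B cell gate, where Fn1 was low in both libraries. In the B cell gate Chil3 stood at 244 CPM in the old and 6.12 CPM in the young library and Fn1 at 23.7 and 8.05 CPM. F13a1, a clotting factor subunit, had 425 (396 to 456) CPM in old members and 98.4 (72.8 to 130.1) CPM in young members. Plcb1, a phospholipase, stood at 402 CPM in old members and 80.3 CPM in young members, and Gas7, a membrane-bending protein, at 149 CPM in old members and 36.1 CPM in young members. Pros1, Ide, Cysltr1, Ms4a8a, Aprt and Fam78b were also among the 12 highest, with relative log2 ratios of 1.60 to 1.92, and Ms4a8a lay at 0.25 in members with a Cd209a UMI.

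Of these higher genes, Fam78b was the one with a negative ratio in the non-classical monocyte gate (-0.44). Gas7 lay at 3.89 in the B cell gate. Of monocyte-derived markers, 11 genes were measured, of which 4 were higher (36.4%) and 0 lower, against 4.58% of all genes at 10 CPM higher. Of these 4, Ly6c2, Lyz2 and Fcgr1 were inside 2-fold in plain CPM ratios, at 0.91, 0.93 and 0.91, and with at least 25 class II UMIs Ly6c2 lay at 0.66 and Lyz2 at 0.79, while Cd14 stayed past 2-fold in both. Lyz2 stood at 10174 (10028 to 10321) CPM in old members and 5342 (5141 to 5549) CPM in young members, Ly6c2, a surface protein of classical monocytes, at 389 CPM in old members and 207 CPM in young members and Cd14, a receptor for bacterial lipopolysaccharide, at 60.3 CPM in old members and 16.1 CPM in young members. Across the classical monocyte list, 10 genes were measured, of which 7 were higher (70%) and 0 lower, with a median of 2.10. Its summed level in single members was 128 to 15464 CPM with a median of 5093 in the old and 456 to 11637 CPM with a median of 2919.6 in the young library, and no gene of the list was at 0. Its part in the other ratios was not tested. In members with a Cd209a or Flt3 UMI (89 old, 21 young) Fn1 lay at 5.36, F13a1 at 2.93 and H2-Eb1 at -1.11. The Fn1 value rested there on few young UMIs, 3 with Cd209a and 0 with Flt3. Young cells with Batf3 alone, left out there, held 13.

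**Figure D4:**
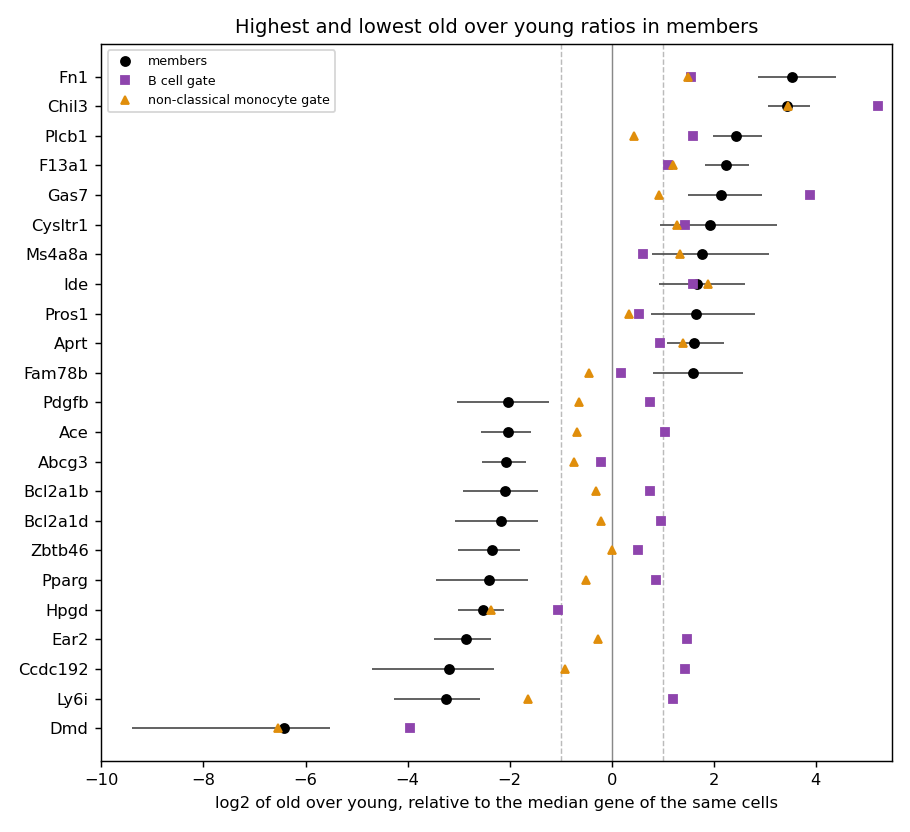
Relative log2 ratios of old over young for genes among the 12 highest and the 12 lowest in members, out of genes at 50 CPM or more in members of either library and higher in members than in neutrophil gate cells. Points are members with 95% intervals of the ratio, squares the B cell gate and triangles the non-classical monocyte gate, and dashed lines mark 2-fold. Members stand at 3.54 for Fn1 and -6.42 for Dmd, which is far to the left in all 3 kinds of cell.

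Non-classical monocyte genes were among the lower genes. Ace, the angiotensin-converting enzyme found on these monocytes, stood at 36.7 (28.5 to 46.7) CPM in old members and 169 (135 to 209) CPM in young members, with a UMI in 26 old and 13 young members. Ear2, an eosinophil-associated ribonuclease outside the non-classical monocyte list, was also lower. It had 21.9 (15.7 to 29.9) CPM in old members and 181 (145 to 222) CPM in young members, and 45 of its 90 young UMIs came from 1 cell. Nr4a1, the transcription factor of these monocytes, stood at 47.7 CPM in old members and 195 CPM in young members (-1.88). Over the list, 12 genes were measured, of which 0 were higher and 6 lower (50%, against 4.98% of all genes at 10 CPM). Of these, Treml4 lay at -0.60 and Cd36 at -0.84 with at least 25 class II UMIs, inside 2-fold. The list's summed level in single members was 0 to 4269 CPM with a median of 757 in the old and 100.1 to 6925 CPM with a median of 912 in the young library, with no gene at 0. Young members thus held more of these genes and old members more of those of classical monocytes. Members with at least 3 UMIs of Treml4, Ace and Cd300e numbered 14 of 107 in the old and 11 of 29 in the young library, and those with at least 5 of Vcan, F13a1 and Ccr2 91 and 19. The latter count takes in Ccr2, which was found throughout the members, with a UMI in 103 old and 25 young ones. It is thus not a count of members with classical monocyte RNA alone.

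Zbtb46, the conventional dendritic cell factor (ENSMUSG00000027583, chr2:181387762-181459426), stood at 21.9 (15.7 to 29.9) CPM in old members and 127 (97.2 to 162) CPM in young members, a relative log2 ratio of -2.35 (-3.01 to -1.80). It rested on 40 UMIs in 25 old members and 63 UMIs in 10 young members, and thinned to 1000 UMIs 3.74% of old and 3.45% of young members had a UMI and the ratio turned to 0.41. Itgax, the CD11c integrin chain of dendritic cells, was lower at 34.0 (26.1 to 43.6) CPM in old members and 122 (93.7 to 157) CPM in young members (-1.69). Of the dendritic cell identity list, 9 genes beside the rule genes were measured, of which 0 were higher and 2 lower, and the median was -0.0987. Irf8 stood at 248 CPM in old members and 291 CPM in young members (-0.0987) and Irf4 at 54.3 CPM in old members and 38.2 CPM in young members (0.63). Wdfy4 was lower at 212 CPM in old members and 532 CPM in young members (-1.20), where 84 of 386 old and 104 of 265 young UMIs came from 1 cell each, and without them it lay at -0.98. Hpgd, which breaks down prostaglandins, stood at 36.2 CPM in old members and 233 CPM in young members (-2.52), Pparg, a nuclear receptor of lipid metabolism, at 9.87 CPM in old members and 62.3 CPM in young members (-2.41), and the close copies Bcl2a1b and Bcl2a1d, survival genes whose reads may be split, at -2.10 and -2.16.

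Some of the lowest ratios stood beside low ratios in other cells. Dmd, which encodes dystrophin, had 3 UMIs in 107 old members and 123 in 29 young members, and its relative log2 ratio of -6.42 compares with -6.55 in the non-classical monocyte gate, -3.96 in the B cell gate and -4.19 in the neutrophil gate. Sugct, a mitochondrial CoA transferase, had 8 and 81 UMIs in old and young members, with ratios of -4.80 in members and -4.39 in the B cell gate. Ly6i, an Ly6-family surface protein, stood at 9.32 CPM in old members and 106 CPM in young members, at -1.64 in the non-classical monocyte gate. Ccdc192 had 9 old and 29 young UMIs, of which 21 came from 1 young cell, and Abcg3 and Pdgfb lay at -2.08 and -2.02.

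The shares of lower genes in the subset lists stand against 4.98% of all genes at 10 CPM. For type 1 genes, 10 genes beside the rule genes were measured, of which 0 were higher and 3 lower (30%), which were Cadm1, Wdfy4 and Ifi205. For type 2 genes, 10 genes beside the rule genes were measured, of which 0 were higher and 1 lower (10%), the lower one being the lectin Mgl2 from 7 old and 14 young UMIs. Among plasmacytoid genes, 14 genes were measured, of which 0 were higher and 4 lower, a share of 28.6%. Of these 4, Klk1, Ly6d and Cox6a2 had all their young UMIs in 1 cell. The other, Runx2, was at the edge at -1.03 and stayed past 2-fold in 8 of 13 alternatives. It lay at -0.55 with at least 3 UMIs of the rule's markers and at -0.88 with at least 25 class II UMIs. Without the member that held most of each gene in each library, Cadm1 lay at 1.63, Wdfy4 and Ifi205 at -0.98 and -0.88, Klk1 at 0.0403, Ly6d at 1.95 and Cox6a2 at 2.15. Among migratory genes, 6 genes were measured, of which 1 was higher and 1 lower, Cd63 and Ccl5, and with equal weight per cell Ccl5 lay at -0.76. Il12b was at 0 in both libraries, and so was Ccr7 in the young members. Interferon-stimulated genes leaned low in old members, where 27 genes were measured, of which 0 were higher and 9 lower, with a median of -0.61. Ifit1, an antiviral RNA-binding protein, had 3 old and 16 young UMIs, Isg15, a ubiquitin-like modifier, stood at 25.2 CPM in old members and 88.4 CPM in young members (-1.64), and Oasl2, an interferon-induced synthetase homologue, at 62.5 CPM in old members and 147 CPM in young members (-1.09). The sum of the list was 3112 CPM in old and 4579 CPM in young members. It was lower in the old library in each gate as well, at 1919 and 4896 CPM in old and young neutrophil gate cells, 2523 and 4562 CPM in non-classical monocyte gate cells and 2175 and 3425 CPM in B cell gate cells. Gbp2, a guanylate-binding protein, had 33 of its 39 young UMIs in 1 cell and lay at 0.38 without its top members.

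Neutrophil transcripts were found in members of both libraries. S100a8, a calprotectin subunit, stood at 13709 (13539 to 13879.7) CPM in old members and 4187 (4009 to 4371) CPM in young members, and after thinning 99.1% of old and 62.1% of young members had a UMI of it, against 96.6% and 57.4% of B cell gate cells, a cell type not known to make it. S100a8, S100a9 and Retnlg together took a median of 0.709% of UMIs in old and 0.178% in young members, with highest values of 39.7% and 7.48%, and at least 5% in 13 old and 1 young members. Ltf, the iron-binding granule protein, had 371 UMIs in old members and 0 in young members, at least 33.8-fold higher against a floor of 3 UMIs over the young members, and 210 of the 371 came from 1 cell. Prtn3, proteinase 3, had 172 and 0 UMIs, at least 15.7-fold higher against the same floor, spread over 56 old members. In the B cell gate Prtn3 stood at 3.88 CPM in the old and 1.93 CPM in the young library and in the neutrophil gate at 12.6 and 2.95 CPM. Its share of the old members' UMIs, 172 of 1823874, lay above its level in both of these old gates. Prtn3 is not on the neutrophil list and is not described here as a neutrophil transcript, and its source in members was not tested. Over the neutrophil list, 18 genes were measured, of which 10 were higher (55.6%) and 1 lower (5.56%), against 4.58% and 4.98% of all genes at 10 CPM. The list's summed level in single members was 4611 to 439161 CPM with a median of 8386 in the old library. In the young library it was 1009 to 78436 CPM with a median of 2281, and only Ltf was at 0, in young members. With the 94 old and 28 young members under 5% alone, S100a8 lay at 0.64, against 1.84 in all members, H2-Eb1 lay at -1.05 and Fn1 at 3.60.

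Markers of other cell types differed between the libraries as well, and their part in the ratios was not tested. Platelet genes summed to 758 CPM in old members and 68.3 CPM in young members, with single old members at 0 to 19305 CPM with a median of 98.9 and young ones at 0 to 604 CPM with a median of 0, and 7 of 7 measured genes were higher. Ppbp, a platelet chemokine, had 128 of its 415 old UMIs in 1 cell. Erythroid genes summed to 13523 CPM in old members and 3157 CPM in young members, with single old members at 504 to 239645 CPM with a median of 1222 and young ones at 271 to 56318 CPM with a median of 1011. Again 7 of 7 measured genes were higher, and 3311 of 12534 old UMIs of the beta globin Hbb-bs came from 1 cell. In members with a Cd209a UMI Hbb-bs lay at 0.22, against 2.15 in all members. B cell genes summed to 150.2 CPM in old members and 211 CPM in young members, with Pax5 at 0 in old members and Ms4a1 at 0 in young members, and T cell genes to 9.32 CPM in old members and 24.1 CPM in young members, with Trac at 0 in both. Natural killer genes summed to 43.9 CPM in old members and 333 CPM in young members, with 5 of 5 measured genes lower. Single old members held 0 to 393 CPM with a median of 0 and young ones 0 to 4202 CPM with a median of 49.3, and Gzma and Ncr1 were at 0 in old members. Of the 46 young UMIs of Gzma, 43 came from 1 cell. Without the member holding most of each gene in each library, Klre1 lay inside 2-fold at -0.42. Gzma, Nkg7 and Ncr1 then lay at -2.84, -2.20 and -1.60. Plasma cell genes summed to 169 CPM in old members and 189 CPM in young members with Jchain at 0 in both, macrophage genes to 175 CPM in old members and 143 CPM in young members with Vcam1 at 0 in both, and basophil or mast cell genes to 126 CPM in old members and 147 CPM in young members with 7 of 8 genes, Mcpt8 among them, at 0 in both. Eosinophil genes summed to 23.0 CPM in old members and 187 CPM in young members, of which Ear2 gave 21.9 and 181 CPM, with Epx at 0 in both libraries.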

How the data were processed

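The authors deposited 1 matrix per age of UMI counts, with 32285 genes by cell barcodes, from BD Rhapsody microwells. Per the file headers they were written by Cell Ranger 7.2.0, and per the submitters' processing notes the build was mm10. How cells were called is not given in the sources used here. A barcode needed 200 genes and no more than 20% of its UMIs from mitochondrial genes, and 817 of 14334 old and 678 of 13599 young barcodes failed. No doublet caller was run and no doublet removed, so a member may hold the RNA of more than 1 cell.

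Counts were summed over members per library and given as CPM with Python 3.11.15, numpy 2.4.6, scipy 1.17.1 and pandas 2.3.3. Figures were drawn with matplotlib 3.10.9. The steps were tested on simulated data. Ratio intervals are exact binomial. With 10 CPM, the floor for lists, young members have about 4.98 UMIs. PCR and capture errors are not in these intervals. Positions come from GENCODE M21 on GRCm38, and all 179 named genes matched by identifier.

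The members, gene lists and gates were chosen with earlier results of these data known. Named genes were the markers of the members and 12 fixed markers, the 12 highest and 12 lowest ratios among genes at 50 CPM and above the neutrophil gate, the 6 highest and 6 lowest without the last condition, the 15 highest over the gates, and up to 4 genes per list. Added after values were seen were the genes Ciita, H2-DMa, H2-Oa, Tcf4, Kmo, Dpp4, Csf1r, Adgre4, Treml4, Bcl11a, Ctss, Cst3, Ctsh, Ccr7, Fscn1, Ccr9, Naaa and Slamf7 (18 genes), Isg15, Oasl2, markers named for being at 0, the split by rule gene, and the choice of single members. A gene among the 12 highest is not reported here. Alternatives were other filters, rule limits, scalings, floors, pseudocounts, thinning and equal weight per cell.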

Additional observations from a re-analysis of the deposited data

How the results depend on the processing

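No paired analysis was possible because each age has 1 library and no fold was tested. The member share moved with the rule. It was 0.629% of old cells with at least 3 UMIs of Flt3, Cd209a and Batf3, 1.04% of old and 0.325% of young cells with 1, 0.592% of old cells with no Cd79a or Cd79b UMI, and 0.0924% of old and 0.0396% of young cells thinned to 1000 UMIs. Higher and lower genes in old members numbered 550 and 489 when thinned, where most genes rest on a few UMIs, and 49 and 30 with a floor of 100 CPM. In plain CPM ratios they numbered 63 and 103. With a Cd209a UMI 167 were lower. Genes above the gates numbered 13 at 100 CPM and 55 at 2-fold.

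Over 179 named genes and 13 settings, 111 of 2327 relative log2 ratios and 42 of 442 list medians had the other sign. Among the 102 genes past 2-fold, 31 of 1326 values had it and 1 was 0, as given next, and 59 of these genes stayed past 2-fold in every setting but thinning. Of the 7 list medians past 2-fold none changed sign. Thinned, Mgl2, Ly6d, Gzma, Rsad2, Eno3 and Klre1 lay at 0.29, Zbtb46 at 0.41, Tgfbr1 at 0.58, H2-DMb2 at 5.15, H2-Ob at 0.00458, Cadm1, Il1rn and Dusp2 at 3.66, Tmem173 at 0.00 and Cdkn2d at -0.73. With a Cd209a UMI Cxcl9 lay at 0.0831, Bcl2 at 0.42 and Apoe at -0.85. With a Flt3 UMI Cxcl9 lay at 0.85, Il1rn at 0.0659 and Gbp2 at 1.15. With at least 3 UMIs of the rule's markers Klk1 lay at 2.00, Ly6d at 2.94 and Cox6a2 at 3.30. In 2 alternatives added after seeing the data, Cxcl9 lay at 0.85 and Gbp2 at 0.17 with a Cd209a or Flt3 UMI, and without each gene's top member Cadm1 lay at 1.63, Klk1 and Cxcl9 at 0.0403, Ly6d at 1.95, Cox6a2 at 2.15 and Gbp2 at 0.38. The cause was not tested. H2-Eb1 ranged over -1.19 to -0.75, Cd74 over -0.84 to -0.35 and Fn1 over 3.16 to 5.36.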

Other observations

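Further gene groups were described in the same members, with the same background of 4.58% of genes higher and 4.98% lower. Of ribosomal protein genes, 22 genes were measured, of which 0 were higher and 0 lower, with a median relative log2 ratio of 0.30. Of mitochondrial genes, 13 genes were measured, of which 1 was higher and 0 lower, with a median of 0.62, and the higher one was mt-Nd6, from 35 old and 2 young UMIs. Among lysosome and lipid genes, 19 genes were measured, of which 3 were higher and 0 lower. They were Apoe, the lipid carrier, at 1512 CPM in old members and 783 CPM in young members, Trem2, a lipid-sensing receptor, from 80 old UMIs in 35 members and 1 young UMI, and the tetraspanin Cd63, from 38 old and 5 young UMIs. Apoe lay at -0.85 in members with a Cd209a UMI, on the other side, and inside 2-fold at 0.83 with a Flt3 UMI and 0.93 with at least 25 class II UMIs. Cd63 lay at 0.98 in plain CPM ratios. Of the uptake receptors, 17 genes beside the rule genes were measured, of which 2 were higher and 2 lower. The mannose receptor Mrc1 was higher at 43.3 CPM in old members and 8.03 CPM in young members, and Cd36, a fatty acid transporter, was lower at 12.1 CPM in old members and 50.2 CPM in young members, but lay at -0.84 with at least 25 class II UMIs.

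Of the pattern recognition list, 17 genes were measured, of which 1 was higher and 1 lower. The higher one was Tmem173, which encodes the DNA-sensing adaptor STING, at 70.7 CPM in old members and 30.1 CPM in young members, and the lower one Tlr11, a receptor for profilin, with 4 UMIs in old members and 16 in young members. Tmem173 lay at 0.73 in members with a Cd209a UMI. For cytokine and growth factor receptors, 22 genes beside the rule genes were measured, of which 1 was higher and 2 lower. Il3ra was higher at 35.1 CPM in old members and 14.1 CPM in young members, while Csf3r was lower at 244 CPM in old members and 683 CPM in young members and Tgfbr1 at 58.1 CPM in old members and 141 CPM in young members. Il3ra lay at 0.99 in members with a Cd209a or Flt3 UMI and Tgfbr1 at -0.96 with equal weight per cell. For chemokine and trafficking receptors, 17 genes were measured, of which 0 were higher and 1 lower, Itgax. Of the cytokines, 10 genes were measured, of which 0 were higher and 3 lower, which were Ccl5, Cxcl9 and Il1rn, and all 13 young UMIs of Cxcl9 came from 1 cell. Il1rn lay at -0.16 in members with a Cd209a or Flt3 UMI. Of the transcription factors, 22 genes beside the rule genes were measured, of which 1 was higher and 1 lower, Nfil3, from 57 old and 6 young UMIs, and Zbtb46. Nfil3 lay at 0.72 in members with a Flt3 UMI. Of the immediate early genes, 19 genes were measured, of which 2 were higher and 2 lower, with Fos at 323 CPM in old members and 175 CPM in young members and the phosphatase Dusp2 at 12.6 CPM in old members and 46.2 CPM in young members. Fos was at the edge, with a relative log2 ratio of 1.01 and a plain one of 0.88. Of the cell cycle list, 6 genes were measured, of which 1 was higher and 1 lower, H2afz and Mcm3, which lay at 0.90 in plain CPM ratios and -0.96 with 5 CPM added. Of cell cycle inhibitors and senescence genes, 11 genes were measured, of which 1 was higher and 1 lower. These were the kinase inhibitor Cdkn2d at 109.7 CPM in old members and 52.2 CPM in young members and the survival gene Bcl2 at 41.1 CPM in old members and 159 CPM in young members, and Cdkn2a had no UMI in either library. The call of Bcl2 turned to 0.42 in members with a Cd209a UMI and ended at -0.65 with at least 25 class II UMIs and -0.88 without its top members, and Cdkn2d lay at 0.94 in members under 5% neutrophil transcripts.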
